A study of Mus musculus with 6 samples.

Results

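Effector transcription factors were examined in CD8 T cells, the killer lymphocytes of adaptive immunity, after activation in culture. The genes were the 10 named ones Prdm1, Tbx21, Eomes, Id2, Zeb2, Runx3, Irf4, Batf, Irf8 and Rora, chosen by name from 25654 genes with a value, and all 10 passed the filter of a mean of at least 1 CPM (a gene's reads scaled to the library's total) that left 10511 genes for testing. Aged cells came from wild-type female C57BL/6 mice of around 65 weeks and young cells from wild-type female C57BL/6 mice of 6 weeks, with 3 libraries per age. In both groups, CD8 T cells isolated from spleen were activated for 2 days with antibodies to the T cell receptor beta chain (3 µg/ml) and CD28 (1 µg/ml). Interleukin 2 was present at 10 ng/ml during activation and during the 5 days of culture that followed. The labels call the libraries biological replicates and name no mouse for any of them, so the p-values measure the spread between these libraries. Age and any difference in how the cultures were handled cannot be told apart.

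These factors turn a stimulated CD8 T cell into a killer cell. T-bet (Tbx21) and EOMES (Eomes), T-box proteins, switch on genes of killing and of interferon gamma, and RUNX3 (Runx3) keeps the CD8 identity and works with them. BATF (Batf) and IRF4 (Irf4) bind DNA together soon after T cell receptor signals, BLIMP-1 (Prdm1) and ZEB2 (Zeb2) are repressors of terminal effector cells, and ID2 (Id2) blocks the E proteins that hold cells in a memory state. IRF8 (Irf8), best known from myeloid and B cells, is induced in activated CD8 T cells, and RORA (Rora) is a nuclear receptor of the circadian clock and of innate lymphoid cells.

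The 6 libraries held 1952552 to 2785915 reads, with a read equal to 0.359 to 0.512 CPM. Counting 0 reads allows up to 3, which is 1.08 to 1.54 CPM in a library. Reads mark the 3' ends of transcripts, so CPM does not grow with gene length. Levels of different genes are set side by side on that basis. How fully each gene's 3' end was counted is not known, since counter and gene models were not given. The 8 listed markers of CD8 T cells were Cd8a and Cd8b1 with the general T cell genes Cd3e, Cd3d, Cd3g, Cd2, Lck and Cd5. All 8 were present, with Cd8a at 244 to 344 CPM in aged and 266 to 276 CPM in young libraries. Cd4 had at most 0.384 CPM in any library. In whole cultures, fewer cells that carry a transcript and less of it per cell cannot be told apart.

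The age difference divided the 10 factors. Irf8, Eomes and Id2 were higher in aged cells, Rora, Prdm1, Irf4 and Runx3 were lower, and Tbx21, Batf and Zeb2 did not pass the test (limma on log2(CPM + 1), Benjamini-Hochberg adjusted p under 0.05 over all genes tested). Over all genes 16.2% were called higher and 12.5% lower, and 28.7% were called in either direction. The aged and young libraries did not overlap for 7 of the 10 factors, against 40.9% of all genes tested. With edgeR on the recovered reads 2 factors were higher and 4 lower, where 13.7% of genes were called higher, 14.8% lower and 28.5% in either direction. With DESeq2 1 was higher and 4 lower, where 9.06% of genes were called higher, 9.68% lower and 18.7% in either direction. The median log2 fold change was -0.23 over the 10 factors and 0.03 over all genes tested. The 5 calls on Irf8, Rora, Prdm1, Irf4 and Runx3 held in each of the 17 alternative analyses. Those on Eomes and Id2 did not: without Young replicate 3, or with DESeq2, Irf8 was the only factor called higher.

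**Figure D1:**
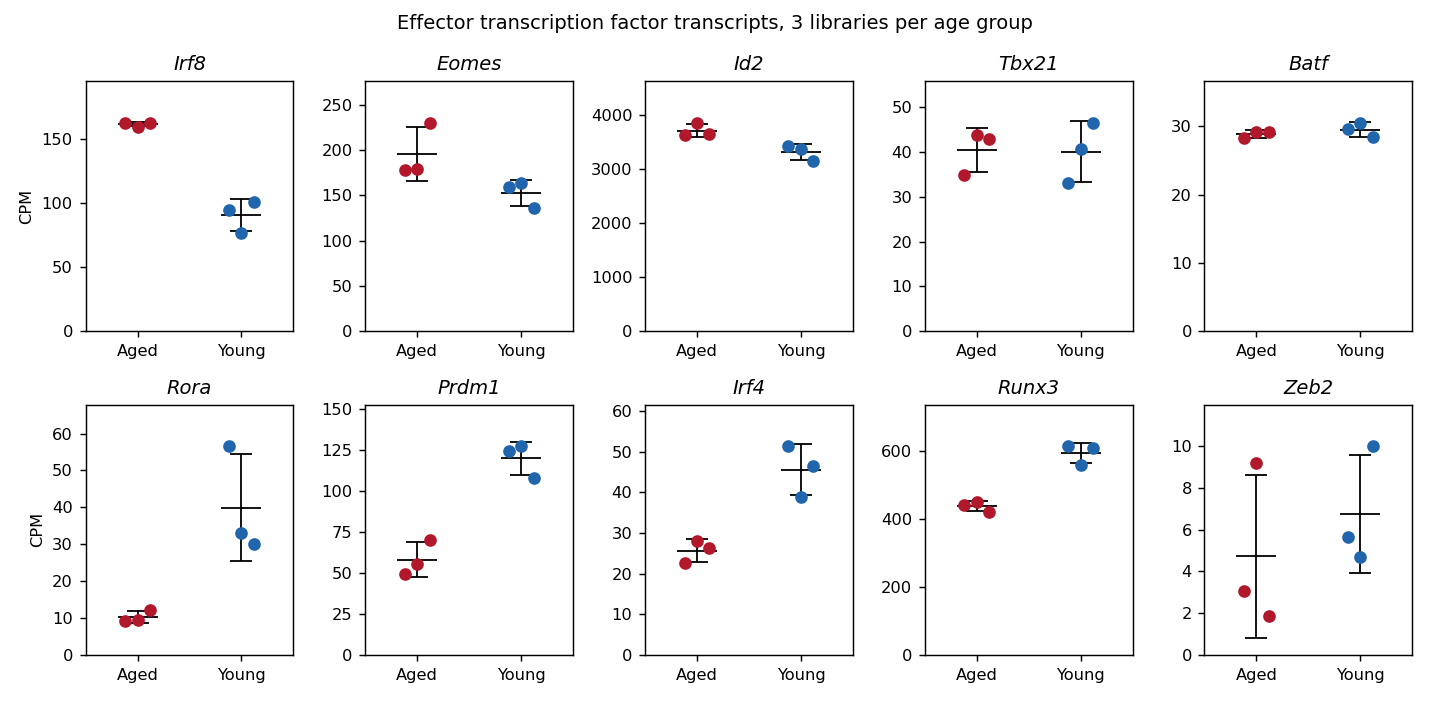
CPM of each of the 10 factors (vertical axes, starting at 0) in the 3 aged (red) and 3 young (blue) libraries, with the mean and SD in black. Irf8 sits at 160 to 163 CPM in the aged libraries, above all young ones at 76.5 to 101 CPM, and Rora sits at 9.22 to 12.2 CPM in the aged libraries, below all young ones at 30.0 to 56.5 CPM.

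Irf8 (ENSMUSG00000041515, chromosome 8, 120736358 to 120756694, plus strand, GRCm38) encodes an interferon regulatory factor that binds DNA with partners such as PU.1 and BATF. It had 163, 160 and 163 CPM in aged libraries, against 94.8, 76.5 and 101 CPM in young libraries. The groups did not overlap. The aged values varied by 1.02%, less than the 5.26% that counting alone would give. The means of 162 ± 1.66 CPM in aged and 90.9 ± 12.9 CPM in young cells (SD, n = 3 each) gave a 1.78-fold higher level, with a log2 fold change of 0.84 ± 0.10 (SE) and a limma adjusted p of 3.79e-06.

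Irf4 (ENSMUSG00000021356, chromosome 13, 30749226 to 30766976, plus strand), a related factor whose amount follows the strength of T cell receptor signals, went the other way. It had 22.5, 28.0 and 26.4 CPM in aged libraries, against 51.3, 38.8 and 46.5 CPM in young libraries. All aged values lay below all young ones, and the mean was 1.78-fold lower in aged cells, with a log2 fold change of -0.80 ± 0.15 (SE) and a limma adjusted p of 0.000449. Within a library, Irf8 had 7.23, 5.73 and 6.2 times the CPM of Irf4 in aged cells, against 1.85, 1.97 and 2.18 times in young cells. This ratio does not depend on how libraries are scaled, and its groups did not overlap (exact permutation test, two-sided, p = 0.1, the smallest that 3 against 3 allows, and 0.15 adjusted over 6 such ratios).

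The starts of these genes are shown because Irf8 and Irf4, close relatives, differed in opposite directions. Each line gives 250 bases before and 50 after a RefSeq transcription start (GRCm38.p6), on the gene's strand, with matches to the 13 motifs listed further on in capitals. The upstream of the 2 Irf8 windows (chr8:120736108-120736407, plus strand) holds the STAT5 motif at 171 and 153 bases before the start. The Irf4 window (chr13:30748983-30749282, plus strand) holds the BLIMP-1 motif, on the other strand, beginning 2 bases before the start.
Irf8: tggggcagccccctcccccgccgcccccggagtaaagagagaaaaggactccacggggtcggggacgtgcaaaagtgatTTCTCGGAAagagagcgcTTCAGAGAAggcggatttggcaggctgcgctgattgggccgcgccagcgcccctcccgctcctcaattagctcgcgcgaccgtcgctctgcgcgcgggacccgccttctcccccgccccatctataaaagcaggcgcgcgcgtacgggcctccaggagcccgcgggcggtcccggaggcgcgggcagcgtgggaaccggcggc
Irf4: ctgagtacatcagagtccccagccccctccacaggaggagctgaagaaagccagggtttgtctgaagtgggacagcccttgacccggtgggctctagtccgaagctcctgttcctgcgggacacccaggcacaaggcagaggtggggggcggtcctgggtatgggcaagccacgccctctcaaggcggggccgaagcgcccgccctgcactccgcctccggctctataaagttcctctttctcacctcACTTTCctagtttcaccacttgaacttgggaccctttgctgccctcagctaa

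The other interferon regulatory factors did not follow Irf8. Irf9, a subunit of the complex that answers type I interferon, averaged 30.9 ± 2.23 CPM in aged and 54.4 ± 4.27 CPM in young cells (SD, n = 3 each), a log2 fold change of -0.80 (limma adjusted p = 0.000122). Irf2, a repressor of interferon-induced genes, averaged 110 ± 4.48 CPM in aged and 157 ± 9.16 CPM in young cells, with a log2 fold change of -0.51 and a limma adjusted p of 0.000142. Irf1, which interferon gamma induces, averaged 104 ± 8.40 CPM in aged and 134 ± 15.5 CPM in young cells, with a log2 fold change of -0.36 (limma adjusted p = 0.00976), and lost its call without Young replicate 1 (limma adjusted p = 0.0638). Irf7, an amplifier of the interferon response, had 0.767 to 3.76 CPM in aged libraries, near the level that a count of 0 allows, and 7.30 to 11.3 CPM in young libraries (log2 fold change -1.57, limma adjusted p = 0.00345). Irf3 (-0.05 on the log2 scale) and Irf5 (-0.75) did not pass.

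Irf8 took a larger share of the family in aged cells. The 8 IRF genes tested summed to 461 ± 5.96 CPM in aged and 521 ± 40.9 CPM in young cells. Irf8 made up 34.9, 35.2 and 35.4% of that sum in aged libraries, against 17.3, 16.1 and 18.8% in young libraries. In the 3 aged libraries it was the most abundant of the 8, and in the 3 young ones Irf2 was, at 28.7 to 31.4%.

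**Figure D2:**
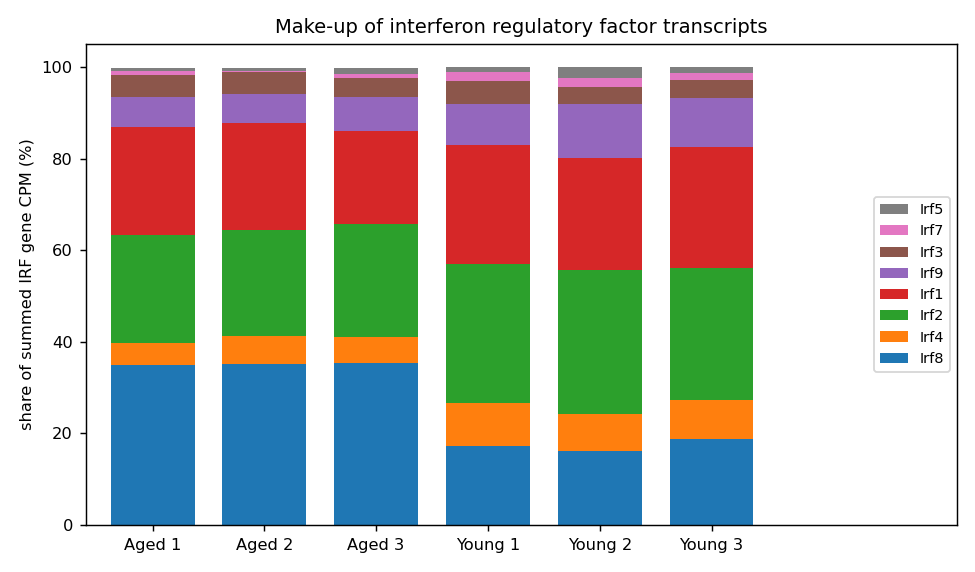
Share of each of the 8 IRF genes tested in their summed CPM (vertical axis, percent) in every library, aged at the left and young at the right. Irf8, at the base of each bar, holds 34.9 to 35.4% in aged and 16.1 to 18.8% in young libraries.

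BATF joins IRF4 or IRF8 and a JUN protein on composite sites. Batf (ENSMUSG00000034266, chromosome 12, 85686669 to 85709087) had 28.2, 29.1 and 29.2 CPM in aged libraries, against 29.6, 30.5 and 28.4 CPM in young libraries. The groups overlapped within a narrow range, and the log2 fold change of -0.03 had a 95% interval of -0.34 to 0.27 (limma adjusted p = 0.904). These values rest on 55 to 85 reads per library and varied by 1.98% in aged and 3.52% in young cells, less than the 12.5 and 11.5% that counting alone would give. Irf4 relative to Batf was 0.8, 0.961 and 0.903 in aged libraries, against 1.74, 1.27 and 1.64 in young libraries, with no overlap (exact permutation test, two-sided, p = 0.1).

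Of the partners, Junb, the AP-1 subunit that pairs with BATF, had 181, 175 and 166 CPM in aged libraries, against 264, 265 and 275 CPM in young libraries. All aged values lay below the young ones, with a log2 fold change of -0.62 ± 0.07 (SE) and a limma adjusted p of 2.89e-06. Jund, the most abundant of these partners at 1164 to 1292 CPM in aged and 1248 to 1472 CPM in young libraries, and Maf, at 224 ± 27.9 CPM in aged and 231 ± 21.9 CPM in young cells, did not pass. Jun had a log2 fold change of -0.29 and just missed the threshold (limma adjusted p = 0.0524), but passed with TMM scaling (-0.35, limma adjusted p = 0.0234). Batf3, a relative of Batf, averaged 9.92 ± 2.49 CPM in aged and 16.0 ± 2.02 CPM in young cells (log2 fold change -0.66, limma adjusted p = 0.0407) and lost its call in 7 of the 17 alternatives. Spi1, which encodes PU.1, and its relative Spib were at 0 in all 6 libraries.

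Prdm1 (ENSMUSG00000038151, chromosome 10, 44437177 to 44528501, minus strand) encodes BLIMP-1, a zinc finger repressor that drives terminal effector and plasma cells. It had 49.2, 55.2 and 69.7 CPM in aged libraries, against 124, 127 and 108 CPM in young libraries. The groups lay far apart, with means of 58.0 ± 10.5 CPM in aged and 120 ± 10.0 CPM in young cells (SD, n = 3 each). The level was 2.06-fold lower, with a log2 fold change of -1.04 ± 0.12 (SE) and a limma adjusted p of 2.53e-06. Among young cells Prdm1 was the fourth most abundant of the 10 factors and above Irf8, and among aged cells Irf8 was the fourth and above Prdm1, with no overlap of the 2 genes in either group.

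The Prdm1 window (chr10:44458699-44458998, minus strand) is shown because Prdm1 was among the factors with the clearest fall. Its RefSeq start lies inside the gene span given above, not at the outer end of 44528501. The window holds the AP-1 motif at 48 bases before that start and the E-box CACCTG, on the other strand, at 87 bases before it.
Prdm1: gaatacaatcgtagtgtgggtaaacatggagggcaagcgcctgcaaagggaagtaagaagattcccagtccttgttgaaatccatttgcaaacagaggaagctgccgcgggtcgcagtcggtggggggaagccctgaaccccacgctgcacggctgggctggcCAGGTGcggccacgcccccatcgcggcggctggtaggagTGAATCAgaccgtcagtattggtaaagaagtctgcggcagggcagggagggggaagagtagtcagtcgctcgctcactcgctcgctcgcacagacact

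Genes that oppose BLIMP-1 and the effector programme were lower more often than higher. Of the 10 listed opponents 7 fell and 0 rose, while 12.5% of all genes fell. The median log2 fold change of the 10 was -0.87, and over all genes it was 0.03. Bach2, a repressor that BLIMP-1 and BATF work against, had 12.3, 13.0 and 14.1 CPM in aged libraries, against 30.4, 34.1 and 32.7 CPM in young libraries (log2 fold change -1.24, limma adjusted p = 2.03e-05). Prdm1 relative to Bach2 was 4 to 4.93 in aged and 3.32 to 4.07 in young libraries, which overlapped (exact permutation test, two-sided, p = 0.2). Bcl6, the classical antagonist of BLIMP-1, was at 0.471 to 1.54 CPM in aged and 2.51 to 3.91 CPM in young libraries. It was called lower (limma adjusted p = 0.0348), but the aged values are 1 to 3 reads and the call was lost in 7 of 16 alternatives. Foxo1, a factor of quiescent cells, averaged 48.8 ± 8.31 CPM in aged and 101 ± 7.02 CPM in young cells, and Lef1, a memory factor, averaged 90.4 ± 3.97 CPM in aged and 147 ± 11.6 CPM in young cells. Tcf7 and Klf2 had log2 fold changes of -2.69 and -3.87, with aged values at or near the level that a count of 0 allows. Zbtb7b, which RUNX3 represses to keep cells from the CD4 fate, averaged 12.7 ± 3.24 CPM in aged and 20.8 ± 3.4 CPM in young cells and lost its call with DESeq2 and in 3 of the 6 analyses that left out a library. Myb, Zeb1 and Id3 did not pass, at log2 fold changes of -0.07, -0.21 and -0.56.

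Of the 16 tested partners and corepressors 3 rose and 2 fell, where 16.2% of all genes rose and 12.5% fell. Among the listed corepressors that BLIMP-1 can recruit, only Hdac2 was called. Hdac2, a histone deacetylase, averaged 109 ± 6.71 CPM in aged and 68.9 ± 1.59 CPM in young cells (log2 fold change 0.66, limma adjusted p = 3.68e-05). Hdac1, Kdm1a and Ehmt2 did not pass, and Tle3, at -0.21, missed the threshold but was called lower in 5 of the 17 alternatives, TMM scaling among them (-0.27, limma adjusted p = 0.0285). Ctbp1, a corepressor that ZEB proteins recruit, averaged 106 ± 7.71 CPM in aged and 80.3 ± 5.93 CPM in young cells (log2 fold change 0.40, limma adjusted p = 0.00493), and DESeq2 did not call it (adjusted p = 0.0515). Of the relatives of Prdm1, Prdm2 had a log2 fold change of -0.49 and was called lower (limma adjusted p = 0.0155), a call lost in 3 of the 6 analyses that left out a library. Prdm4, Prdm9, Prdm10, Prdm11, Prdm15 and Prdm16 did not pass, at -0.07 to 0.81.

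Runx3 (ENSMUSG00000070691, chromosome 4, 135120652 to 135177990, plus strand) was the second most abundant of the 10 factors in both groups. It had 442, 450 and 420 CPM in aged libraries, against 613, 559 and 607 CPM in young libraries. No aged value reached a young one, and the log2 fold change was -0.44 ± 0.06 (SE), with a limma adjusted p of 2.46e-05. Runx3 made up 85.0 to 87.7% of RUNX family CPM in aged and 88.4 to 89.1% in young libraries, and neither Runx1 (-0.31 on the log2 scale) nor Runx2 (-0.15) passed. Cbfb, the partner all RUNX proteins need for firm DNA binding, went the other way, with 97.3, 104 and 122 CPM in aged libraries against 82.2, 90.1 and 77.6 CPM in young libraries (log2 fold change 0.36, limma adjusted p = 0.0118). That call was lost with DESeq2 (adjusted p = 0.0935) and without Aged replicate 3 (limma adjusted p = 0.0758). Runx3 relative to Cbfb was 4.55, 4.32 and 3.44 in aged libraries, against 7.47, 6.2 and 7.82 in young libraries, with no overlap (exact permutation test, two-sided, p = 0.1).

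The upstream of the 2 Runx3 windows (chr4:135120395-135120694, plus strand) is shown because it carries the RUNX family's own motif, beginning at 134 and 126 bases before the start on the other strand, besides the E-box CACCTG on the other strand at 233 bases before it. The second window, further into the gene, matched none of the motifs.
Runx3: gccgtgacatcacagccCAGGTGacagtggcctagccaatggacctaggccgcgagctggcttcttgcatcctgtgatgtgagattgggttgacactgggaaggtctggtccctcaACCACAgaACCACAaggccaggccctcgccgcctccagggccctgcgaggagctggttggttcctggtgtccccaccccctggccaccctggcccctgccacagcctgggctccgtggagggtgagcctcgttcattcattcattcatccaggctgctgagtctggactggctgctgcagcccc

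The T-box genes differed from each other in their calls. Eomes (ENSMUSG00000032446, chromosome 9, 118478212 to 118486132, plus strand), which shares targets with T-bet and favours memory cells, had 178, 179 and 230 CPM in aged libraries, against 159, 163 and 136 CPM in young libraries. The groups did not overlap, with Aged replicate 3 the highest and Young replicate 3 the lowest. The log2 fold change of 0.35 ± 0.10 (SE) passed (limma adjusted p = 0.0112), but not without Aged replicate 3 (0.23, limma adjusted p = 0.0817), without Young replicate 3 (0.27, limma adjusted p = 0.0556) or with DESeq2 (0.31, adjusted p = 0.0539). Tbx21 (ENSMUSG00000001444, chromosome 11, 97098071 to 97115331, minus strand), which encodes T-bet, had 34.8, 43.7 and 42.8 CPM in aged libraries, against 33.0, 40.6 and 46.5 CPM in young libraries. The groups overlapped throughout, and the log2 fold change of 0.02 had a 95% interval of -0.29 to 0.33 (limma adjusted p = 0.940). Eomes relative to Tbx21 was 4.11 to 5.37 in aged and 2.92 to 4.80 in young libraries, which overlapped (exact permutation test, two-sided, p = 0.2), so a difference between the responses of both genes was not shown. Exons of Eomes overlap those of Gm33460 on the other strand, which leaves its value uncertain if the counting ignored strand.

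Id2 (ENSMUSG00000020644, chromosome 12, 25093799 to 25097140, minus strand) was by far the most abundant factor, above 99.8% of tested genes in aged and 99.7% in young cells. It had 3633, 3857 and 3644 CPM in aged libraries, against 3424, 3362 and 3154 CPM in young libraries. The groups did not overlap, but the difference was small, 1.12-fold, with a log2 fold change of 0.16 ± 0.05 (SE) and a limma adjusted p of 0.0138. The call depended on the scaling: it was lost with TMM (0.11, limma adjusted p = 0.157), RLE (0.11, limma adjusted p = 0.121) and upper-quartile scaling (0.12, limma adjusted p = 0.130), and in 8 of the 17 alternatives in all. Id3 and Id1 were each at most 4.24 CPM in any library, and Id1, called higher at a log2 fold change of 1.30, lost its call in 8 of 16 alternatives. Of the E proteins that ID2 binds, Tcf4 averaged 22.5 ± 7.2 CPM in aged and 35.3 ± 4.5 CPM in young cells (log2 fold change -0.67, limma adjusted p = 0.0129), with groups that overlapped and a call lost in 3 of the 6 analyses that left out a library. Tcf3 and Tcf12 did not pass, at 0.02 and -0.16. Id2 relative to the sum of these E-protein transcripts was 23.4, 31.2 and 22.4 in aged libraries, against 19.6, 20 and 20.1 in young libraries, without overlap (exact permutation test, two-sided, p = 0.1).

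Rora (ENSMUSG00000032238, chromosome 9, 68653786 to 69388246, plus strand) differed most in size among the 10 factors. It had 9.22, 9.58 and 12.2 CPM in aged libraries, against 56.5, 33.0 and 30.0 CPM in young libraries. The aged values lay together, and Young replicate 1 stood above the other young libraries. The mean was 3.85-fold lower in aged cells, with a log2 fold change of -1.80 ± 0.22 (SE) and a limma adjusted p of 5.12e-06. Without Young replicate 1 the log2 fold change was -1.53 (limma adjusted p = 0.000165). The aged values rest on 18 to 26 reads, and exons of Rora overlap those of Gm15511 on the other strand, which leaves its value uncertain if the counting ignored strand.

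Clock genes were read beside Rora, since several carry ROR elements. Of 8 tested clock genes 3 fell and 0 rose (12.5% and 16.2% of all genes), with a median log2 fold change of -0.33. Arntl, which encodes the clock activator BMAL1 and is a classical ROR target, had 1.15 to 1.88 CPM in aged and 0.869 to 2.51 CPM in young libraries and did not pass, near the limit of detection. Bhlhe40, a clock and cytokine repressor induced by T cell receptor signals, averaged 165 ± 15.4 CPM in aged and 230 ± 26 CPM in young cells (log2 fold change -0.47, limma adjusted p = 0.000587). Nfil3, a competitor at clock promoters, averaged 130 ± 19.4 CPM in aged and 164 ± 11.4 CPM in young cells (log2 fold change -0.34, limma adjusted p = 0.0148), a call lost without Aged replicate 2 or Young replicate 2. Nr1d1, which encodes REV-ERB alpha, was at 0 to 0.512 CPM in aged and 1.30 to 2.69 CPM in young libraries, too few reads for the size of its fall to be stated. It was called lower (limma adjusted p = 0.0406) from 0 or 1 reads per aged library, and the call held in only 9 of 14 alternatives. Clock (0.56 on the log2 scale) and Nr1d2 (0.11) did not pass.

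Zeb2 (ENSMUSG00000026872, chromosome 2, 44983632 to 45117395, minus strand), which acts with T-bet in terminal effector cells, was the least abundant factor. It had 3.07, 9.20 and 1.88 CPM in aged libraries, against 5.65, 4.67 and 9.99 CPM in young libraries, from 4 to 26 reads. The groups overlapped, and the log2 fold change of -0.60 had a 95% interval of -1.45 to 0.26 (limma adjusted p = 0.304). Without Aged replicate 2 it was called lower (-1.12, limma adjusted p = 0.0393), so that this library decides the call. Zeb1, its relative of naive and memory cells, averaged 36.8 ± 3.54 CPM in aged and 42.7 ± 1.35 CPM in young cells and did not pass (log2 fold change -0.21, limma adjusted p = 0.249). Exons of Zeb2 overlap Zeb2os and Gm27761 on the other strand and Mir5129 on its own.

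**Figure D3:**
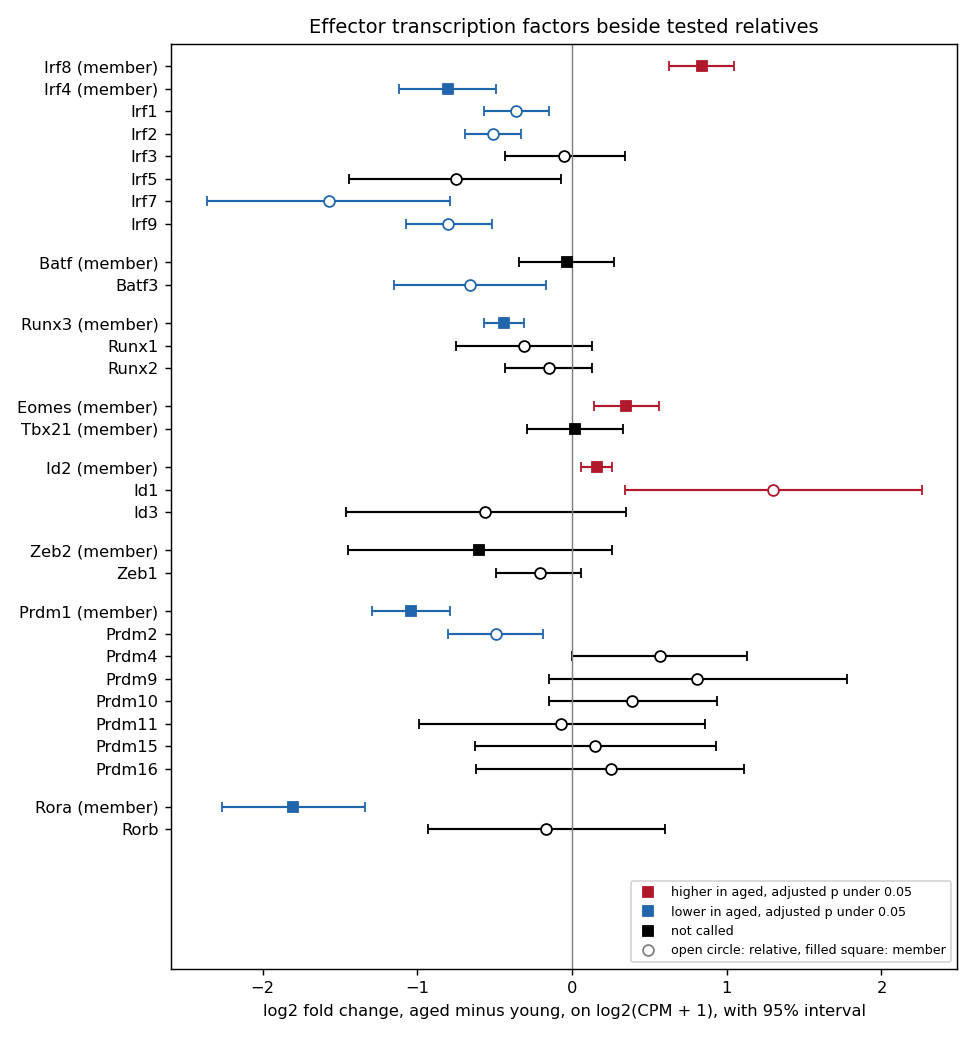
Log2 fold change, aged minus young on log2(CPM + 1), with its 95% interval (horizontal axis) for the 10 factors (filled squares) and their tested relatives (open circles), grouped by protein family. Irf8 at 0.84 lies opposite to Irf4 at -0.80 and Irf9 at -0.80, and Rora has the most negative value, -1.80.

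The 13 motifs were searched on both strands of 32851 RefSeq windows of 300 bases, and all 10 factors had at least 1 window. They were the T-box site AGGTGTGA (in 1.28% of all windows), RUNX TGTGGT (16.8%), the E-boxes CACCTG of ZEB and E proteins (20.2%) and CAGCTG of E proteins (16.3%), AP-1 TGANTCA (7.81%) and STAT5 TTCNNNGAA (8.30%). BLIMP-1 GAAAGT (14.3%) and the ROR core AGGTCA (16.3%) were also searched, as were 5 longer motifs known by name. These were the spaced and joined AP-1 and IRF composite sites (0.119 and 0.125%), which contain the AP-1 motif, the ETS and IRF composite site (2.72%), the interferon response motif (3.44%) and the full ROR site (0.219%), which contains the ROR core. Of the windows not printed, Eomes held the interferon response motif at 154 bases before the start. Batf held the RUNX motif at 149 and 56 bases before it. Id2 held CAGCTG at 196 bases before a start that lies inside its gene span, not at the outer end. Of the 4 Zeb2 windows, a pair that overlap each other held the BLIMP-1 and STAT5 motifs and another held the AP-1 motif at 189 and 132 bases before its start. The second Irf8 window held CACCTG at 205 bases before its own start, on the other strand. Tbx21 held CACCTG at 196 bases before the start, on the other strand, and CAGCTG at 37 bases after it. The Rora window matched none. A match describes letters in a window, not binding.

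Of 20 listed receptors and signal transducers that can induce these factors 4 fell and 0 rose, where 12.5% of all genes fell and 28.7% were called in either direction, with a median log2 fold change of -0.13. Stat4, which carries the interleukin 12 signal to Tbx21, had 28.7, 29.1 and 24.0 CPM in aged libraries, against 50.9, 56.0 and 53.8 CPM in young libraries. That was 1.96-fold lower, with no overlap (log2 fold change -0.95, limma adjusted p = 2.66e-05). Jak3, the kinase of the common gamma chain, fell by 0.66 on the log2 scale, and Il12rb2, a subunit of the interleukin 12 receptor, by 0.44. Il12rb2 lost its call in 6 of the 17 alternatives, and Jak3 did so without Young replicate 1 (limma adjusted p = 0.0715). Il2rb, the interleukin 2 receptor beta chain, averaged 1038 ± 46.5 CPM in aged and 1035 ± 12.3 CPM in young cells and did not pass (95% interval of the log2 fold change -0.11 to 0.11). Il2ra, at -0.20, missed the threshold (limma adjusted p = 0.0565) and passed with TMM scaling (-0.25, limma adjusted p = 0.0222). Of the 20 genes 8 fell with TMM scaling and with edgeR, 9 with limma-voom, and 2 without Young replicate 1. Over all 10511 genes tested, 1548 fell with TMM scaling, 1557 with edgeR and 1520 with limma-voom. Without Young replicate 1, 1011 of 10493 genes fell.

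Of 17 tested genes that T-bet, EOMES, RUNX3, BLIMP-1 or ZEB2 activate, 3 rose and 6 fell (16.2% and 12.5% of all genes), with a median log2 fold change of -0.13. Klrg1, a receptor of terminal effector cells, had 10.2, 14.6 and 16.9 CPM in aged libraries, against 4.35, 8.97 and 4.61 CPM in young libraries (log2 fold change 1.13, limma adjusted p = 0.00588). The granzymes Gzma and Gzmb also rose, at 0.32 and 0.50 on the log2 scale. Ccl5, Gzmk, Il18rap, Cd8b1, Nkg7 and Il12rb2 fell, at log2 fold changes of -2.83 to -0.19, and the call on Nkg7 was lost without Aged replicate 1 or Young replicate 2. The other 8 did not pass, among them the abundant Prf1, Il2rb and Cd8a. Of 11 tested genes that these factors repress, 6 fell and 1 rose (12.5% and 16.2% of all genes), among them S1pr1 and Ccr7 at log2 fold changes of -3.87 and -2.60. In aged libraries S1pr1 was at 1.15 to 3.07 CPM and Ccr7 at 1.53 to 6.15 CPM. Some of these values are near the level that a count of 0 allows. Bcl6, Tcf7 and Zbtb7b, which fell, and Id3 are also among the opponents above, so the counts of both lists share genes. Myc, a target of BLIMP-1 repression, rose at 0.61 (limma adjusted p = 0.0161) with groups that overlapped, and lost its call in 5 of the 17 alternatives. Il7r did not pass at -0.37 (limma adjusted p = 0.0885) and was called lower with TMM scaling, upper-quartile scaling and without Aged replicate 2.

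Of 10 tested genes tied to BATF, IRF4 or IRF8, 3 fell and 1 rose, where 12.5% of all genes fell and 16.2% rose. Slc2a1, the glucose transporter, averaged 89 ± 11 CPM in aged and 161 ± 4.81 CPM in young cells (log2 fold change -0.85, limma adjusted p = 2.14e-06). Hk2, which traps glucose in the cell, averaged 165 ± 28 CPM in aged and 225 ± 18.1 CPM in young cells (log2 fold change -0.46, limma adjusted p = 0.00226). Ctla4 fell by 2.60 on the log2 scale. Il10, a cytokine that BLIMP-1 and BATF promote, had 46.1, 59.4 and 24.9 CPM in aged libraries, against 21.7, 20.8 and 20.7 CPM in young libraries (log2 fold change 0.93, limma adjusted p = 0.0034). Icos and Hif1a, both abundant, did not pass.

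**Figure D4:**
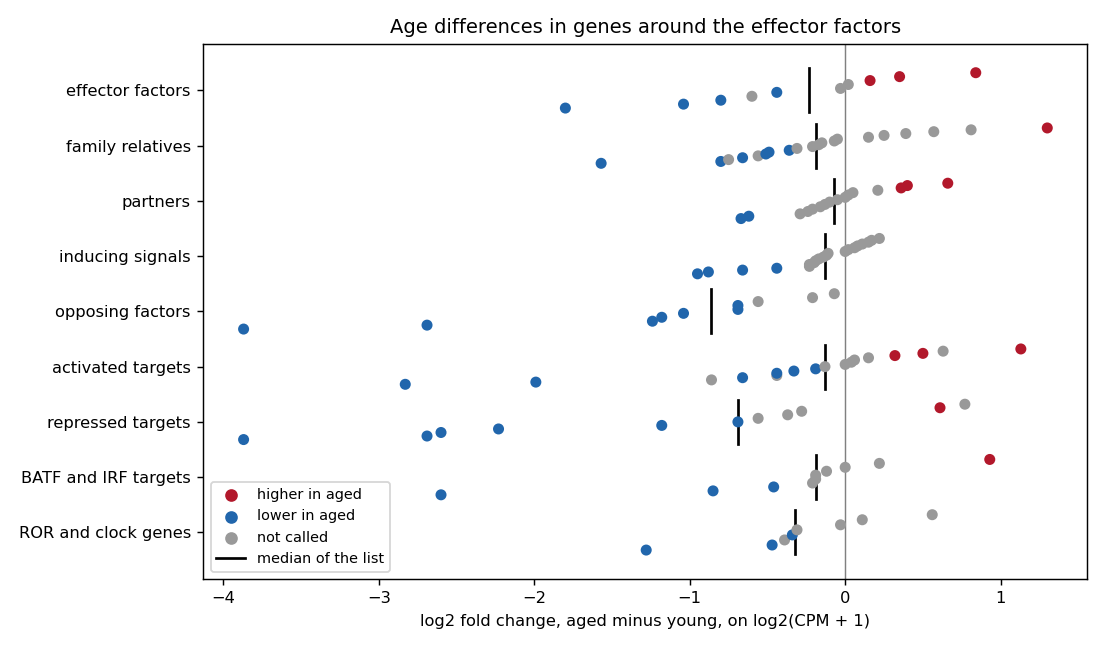
Log2 fold change, aged minus young on log2(CPM + 1) (horizontal axis), of each tested gene in 9 lists, in red where called higher, blue where called lower and grey where not called, with the list's median as a black line. Of the 10 opposing factors 7 are blue and 0 red, while the effector factors hold 3 red and 4 blue points. Some genes appear in several lists.

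Among the 113 other tested genes of these lists, the pattern nearest to each called factor was measured as the Euclidean distance of log2(CPM + 1), centred per gene, over the 6 libraries. The nearest were Cbfb to Eomes (0.14), Irf2 to Runx3 (0.19), Il21r to Id2 (0.19), Jak3 to Irf4 (0.21), Bach2 to Prdm1 (0.39) and Hdac2 to Irf8 (0.40). For Rora no gene came closer than 0.90. The distance was not scaled for the size of each gene's variation, so genes that vary little lie near each other. Il21r itself was not called (log2 fold change 0.08, limma adjusted p = 0.495).

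The levels of the 10 factors spanned 4.72 to 3711 CPM in aged and 6.77 to 3313 CPM in young cells. In aged cells the order was Id2, Runx3, Eomes, Irf8, Prdm1, Tbx21, Batf, Irf4, Rora and Zeb2, with no overlap between the ranges of neighbours, although those of Batf and Irf4 (28.2 to 29.2 and 22.5 to 28.0 CPM) and of Rora and Zeb2 (9.22 to 12.2 and 1.88 to 9.20 CPM) nearly met. In young cells the order was Id2, Runx3, Eomes, Prdm1, Irf8, Irf4, Tbx21, Rora, Batf and Zeb2. There the ranges of Irf4, Tbx21, Rora and Batf overlapped from neighbour to neighbour. Rora stood above 31.9% of tested genes in aged and 65.2% in young cells, the widest shift in rank of the 10.

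Irf8 and Rora are also factors of other cell types, so markers of those types were read beside them. Of 8 B cell markers 5 were at 0 in all 6 libraries, Cd79a, Ms4a1 and Pax5 among them, and the 8 summed to 0 to 1.53 CPM in aged and 2.51 to 11.1 CPM in young libraries. Cd79b, the only 1 tested, was called lower (limma adjusted p = 0.00515). It averaged 0.982 ± 0.852 CPM in aged and 6.34 ± 3.74 CPM in young cells. Of 12 myeloid and dendritic cell markers Lyz2, Adgre1, Flt3 and Siglech were at 0 in all 6 libraries. The 12 summed to 194 to 221 CPM in aged and 219 to 228 CPM in young libraries, most of it Cst3 and Fcer1g. Of the 8 tested 1 was called higher and 2 lower, where 16.2% of all genes were called higher and 12.5% lower. Fcer1g was called higher with groups that overlapped and lost its call in 10 of the 17 alternatives. Itgam averaged 0.442 ± 0.473 CPM in aged and 3.08 ± 1.49 CPM in young cells and was called lower (limma adjusted p = 0.0204), a call lost in 4 of 16 alternatives. Xcr1, a receptor of dendritic cells whose subset needs IRF8, had 12.3, 9.58 and 6.12 CPM in aged libraries, against 36.5, 26.9 and 23.1 CPM in young libraries, and Csf1r was at 7.06 CPM in Aged replicate 3 and 0 in the other 5 libraries. Summed markers of innate lymphoid and mast cells were 5.65 to 11.8 CPM in aged and 10.4 to 19.6 CPM in young libraries, with Gata2 at 0. Of the 3 tested 2 were called lower and 0 higher, where 12.5% of all genes fell. Il1rl1 averaged 2.16 ± 1.08 CPM in aged and 5.87 ± 0.788 CPM in young cells (limma adjusted p = 0.0176). Cpa3 averaged 1.75 ± 1.52 CPM in aged and 7.39 ± 2.83 CPM in young cells (limma adjusted p = 0.00655). Il1rl1 kept its call in 12 and Cpa3 in 15 of 16 alternatives. Natural killer cell markers summed to 97.9 to 131 CPM in aged and 134 to 140 CPM in young libraries, with Klra8 at 0. Most of this sum was Klrd1, which fell by 0.44 on the log2 scale, while Klre1 rose and averaged 13.1 ± 3.05 CPM in aged and 3.12 ± 2.07 CPM in young cells (limma adjusted p = 0.000646). Red cell and platelet markers summed to 1.15 to 4.24 CPM in aged and 10.4 to 22.3 CPM in young libraries, with Hbb-bs and Pf4 among those at 0. Hbb-bt, the only 1 called of the 3 tested, was lower (limma adjusted p = 9.45e-06). It was at 0 in the aged libraries and averaged 7.97 ± 2.99 CPM in young cells. Markers of plasma cells, which express Prdm1, summed to 97.4 to 111 CPM in aged and 70.4 to 90.9 CPM in young libraries, nearly all of it Xbp1, with Tnfrsf17 at 0. The other markers did not follow Xbp1. Mzb1 averaged 1.79 ± 2.47 CPM in aged and 3.53 ± 1.67 CPM in young cells and did not pass. Jchain was at 0 in the aged and 0.359 to 3.07 CPM in the young libraries, and Sdc1 was found only in Aged replicate 2, at 0.767 CPM. The 4 CD4 and regulatory T cell markers summed to 11.3 to 18.9 CPM in aged and 19.6 to 23.7 CPM in young libraries. Most of this sum was Zbtb7b, which is also among the opponents above. Cd40lg averaged 1.64 ± 0.67 CPM in aged and 0.521 ± 0.218 CPM in young cells and did not pass. Foxp3 averaged 1.02 ± 1.77 CPM in aged and 0.657 ± 0.792 CPM in young cells, below the filter, as was Cd4. The 8 listed CD8 and general T cell markers themselves summed to 2055 to 2219 CPM in aged and 2599 to 2715 CPM in young libraries. Of these 8 markers 5 fell and 0 rose, where 12.5% of all genes fell and 16.2% rose. Those that fell were Cd8b1 and the general T cell genes Cd3e, Cd3d, Cd3g and Cd2. Cd8a averaged 303 ± 52.2 CPM in aged and 270 ± 5.69 CPM in young cells and did not pass, nor did Lck and Cd5. The part of these differences in the values of the 10 factors was not tested.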

How the data were processed

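RNA was sequenced from 6 libraries of cultured CD8 T cells, 3 per age group, made with the QuantSeq 3' kit from 500 ng of total RNA, per the labels' protocols. The authors deposited 1 file per library in CPM, with columns that sum to 1000000. Per the submitters' processing notes, reads were placed on GRCm38 (mm10). Aligner, counter, strand setting and gene models were not given in the sources used here. Read numbers were recovered from the size of a single read in each library (100% of values came out whole, to within 0.001 reads), and edgeR's quasi-likelihood test on them called 3000 genes. 1 identifier had no value. The file of Aged replicate 2 names its column as replicate 3 and was used as replicate 2, as recorded.

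Groups came from sample titles. The test was limma 3.58.1 (R 4.3.3) with an intensity trend on log2(CPM + 1), two-sided, on genes averaging 1 CPM or more. Log2 fold changes are aged minus young and understate changes of low genes. Folds are ratios of mean CPM. Ratios of 2 genes were tested by exact permutation, and over the 6 ratios the lowest adjusted p was 0.15. The ratios were chosen after values were seen. The factors and lists were chosen with earlier results of these data known. Named genes were the 10 factors, their tested relatives, and up to 5 per other list by p or a mean above 100 CPM; further ones were chosen after their values were seen. Positions are from GENCODE M21 and sequences from RefSeq (GRCm38.p6). Alternatives used TMM, RLE and upper-quartile scaling, other filters and pseudocounts, edgeR 4.0.16, DESeq2 1.42.0 and limma-voom, a replicate block, and each library left out. The tests were checked on simulated counts. Floors cover counting error only. Some genes are not reported here.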

Additional observations from a re-analysis of the deposited data

How the results depend on the processing

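Of the 10 factors, Irf8, Prdm1, Irf4, Runx3, Rora, Tbx21 and Batf stayed on the same side of the threshold and kept their direction where called in all 17 alternatives. The count of factors called higher was 3, and 1 with DESeq2. It ran from 1 to 3 when each library was left out, with 1 without Young replicate 3. The count called lower was 4, and 4 to 5 when each library was left out, the fifth being Zeb2 without Aged replicate 2. Over all genes 1701 were called higher and 1313 lower, against 952 and 1017 with DESeq2, 1443 and 1557 with edgeR, and 1432 and 1548 with TMM scaling. When each library was left out, 1322 to 1582 were higher and 1011 to 1207 lower. The replicate number as a block gave 1725 and 1336 genes, and 3 and 4 of the factors, as without it. Same-numbered libraries did not deviate together (correlations of 0.021, 0 and 0.003). These are deviations from means of 3 libraries, so they cannot settle whether the numbers pair libraries. The block changed no factor's call. Counts in the lists also moved over all alternatives, given here with list sizes as tested in the main analysis. Falling genes numbered 4 to 7 of 11 repressed targets, 5 to 7 of 10 opponents and 2 to 9 of 20 inducing signals. Of 8 clock genes 1 to 4 fell. Of 20 relatives 3 to 7 fell, where the main analysis called 6 lower and 1 higher. Of 16 partners 1 to 3 rose and 1 to 4 fell. Over all genes 1011 to 1557 fell and 952 to 1726 rose in the same alternatives, against 12.5% and 16.2% of genes in the main analysis. No call reversed. The cause of these shifts was not tested. Depth limits Zeb2, Bcl6, Irf7, Nr1d1, Id1, Tcf7, Klf2, S1pr1 and Ccr7, whose values are a few reads in some libraries.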
